A study of Mus musculus and Callithrix jacchus with 22 samples.

Results

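The MGE-derived interneurons of newborn mouse neocortex (Inh_MGE) were the cells of postnatal day 1 (P1) to which the authors' annotation gave that name. They numbered 347 of the 4866 P1 cells, of 19145 mouse cells and of 35064 cells of mouse and marmoset in all. Chromatin accessibility had been measured in single cells by scATAC-seq, in which the transposase Tn5 cuts open DNA and barcodes assign each read to a cell. The mice were untreated wild-type C57BL/6 animals, and the somatosensory and motor cortex were combined at P1, P7 and P21. Each age was represented by 4 libraries. For 2 of them the titles carry a pair of numbers (here numbered 1 and 2), and for the other 2 the word Pool (Pool 1 and Pool 2). Neither the labels nor the study's methods say what sets these series apart or whether the libraries came from separate animals, so that all p-values refer to the spread between libraries, which may be technical.

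Cortical interneurons use the inhibitory transmitter GABA and are born outside the cortex, mainly in the medial and caudal ganglionic eminences (MGE and CGE) of the embryonic ventral forebrain. They migrate into the cortex before and around birth and intermingle there with the locally born excitatory pyramidal neurons. Interneurons from the MGE keep the transcription factor Lhx6 and mature, over the first postnatal weeks, into somatostatin (Sst) and parvalbumin (Pvalb) cells, whereas those from the CGE include the Vip and many of the Npy and Reelin cells. Gad1 and Gad2, the enzymes that make GABA, mark both groups. At P1 most MGE-derived cells have reached the cortex but have not acquired their mature properties, and the annotation names them by origin (Inh_MGE and Inh_CGE). At P7 and P21 it names interneurons by mature markers (Inh_Sst, Inh_Pval and Inh_Npy). The values analysed here were the reads and peaks of each cell, its cluster and its name, and no gene-level value, so the name could not be checked against Gad1, Gad2 and Lhx6. Names had been given to whole clusters from the inferred activity of marker genes.

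The P1 libraries did not form 1 homogeneous group. In numbered libraries 1 and 2 a cell had a read in a median of 171 and 107 peaks per 1000 reads, against 521 to 578 in the other 10 mouse libraries. Their lowest peak count was 300, against 487 to 570 elsewhere, under the study's common filter of at least 1000 reads and 300 peaks. These libraries held 241 of the 347 Inh_MGE cells. In the number of cells per cluster, numbered libraries 1 and 2 agreed within sampling noise (chi-square p = 0.118 over cells), as did Pool libraries 1 and 2 (p = 0.965), whereas all 4 pairs across the series differed (p = 1.36e-07 to 1.32e-05). Astrocytes made up 9.51% and 10.7% of the cells in the numbered libraries and 5.49% in each Pool library. The agreeing libraries held different cells at different depths and were therefore kept apart, but the P1 values are also given with each series counted as 1 sample.

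How large the Inh_MGE population was at P1 was asked first. Inh_MGE cells numbered 158 and 83 in numbered libraries 1 and 2, and 57 and 49 in Pool libraries 1 and 2. They made up 44.5% (95% Wilson interval 39.4 to 49.7), 44.4% (37.4 to 51.5), 31.1% (24.9 to 38.2) and 28.3% (22.1 to 35.5) of the interneurons of these libraries in the same order. Both numbered libraries lay above both Pool libraries. The mean was 37.1% ± 8.57 (SD, n = 4 libraries), or 37.1% ± 10.4 (SD, n = 2 series). Inh_CGE cells, the other interneurons named at P1, were the more numerous in every library, with 197, 104, 126 and 124 cells. For every 100 Inh_CGE cells there were 80.2 and 79.8 Inh_MGE cells in the numbered libraries and 45.2 and 39.5 in the Pool libraries. Intervals cover counting error only, and the shares are of recovered cells, which need not be those of the tissue.

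The series differed in the balance of the interneuron groups and hardly in interneurons as a whole. Of all neurons, Inh_MGE cells made up 9.15% and 10.6% in the numbered libraries and 7.26% and 6.13% in the Pool libraries (mean 8.29% ± 1.99, SD, n = 4 libraries). Inh_CGE cells went the other way, with 11.4% and 13.3% in the numbered libraries and 16.1% and 15.5% in the Pool libraries. Interneurons of both kinds made up 20.6%, 23.9%, 23.3% and 21.7% of neurons. The mean of the numbered libraries was thus 3.19 percentage points above that of the Pool libraries for Inh_MGE (9.89% against 6.70%) and 3.42 points below it for Inh_CGE, a difference of -3.42 (12.4% against 15.8%), while for the kinds combined the means were 22.2% and 22.5%. With 2 libraries against 2 the smallest p of an exact permutation test is 0.333, so these differences could not be tested over libraries. Of all P1 cells Inh_MGE made up 7.0% ± 1.45, and of cells with a type name 7.35% ± 1.53 (SD, n = 4 libraries each).

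**Figure D1:**
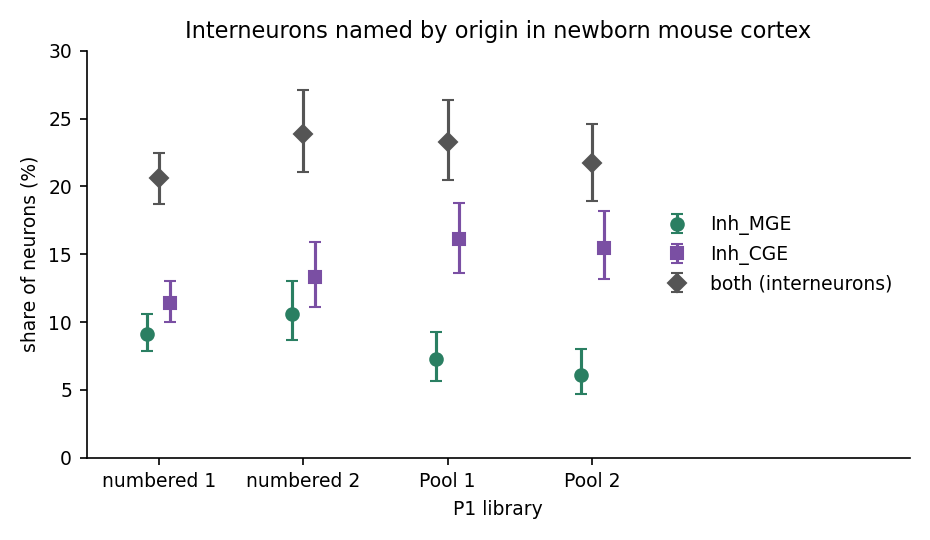
Share of neurons (percent, y axis) named Inh_MGE (circles), Inh_CGE (squares) or either (diamonds) in each of the 4 P1 libraries (x axis), with 95% Wilson intervals as bars. The combined share lay between 20.6% and 23.9%, while Inh_MGE was lower and Inh_CGE higher in both Pool libraries than in both numbered libraries.

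The peaks of each cell gave a second view of the Inh_MGE population, since cells had been kept only above a minimum of peaks. In numbered library 1 the median Inh_MGE cell had 682 peaks, in numbered library 2 it had 561, in Pool library 1 it had 1113 and in Pool library 2 it had 914. Reads, in contrast, were higher in both numbered libraries than in both Pool libraries, with medians of 4100.5 and 5240 in the numbered libraries and 1894 and 1580 in the Pool libraries. Inh_MGE cells had a median of 171 and 107 peaks per 1000 reads in the numbered libraries and 565 and 576 in the Pool libraries, close to those of Inh_CGE cells (174, 106, 579 and 580). Leaving out the 5% of Inh_MGE cells at each end, this value spanned 151 to 210 in numbered library 1, 90.1 to 182 in numbered library 2, 538 to 595 in Pool library 1 and 549 to 600 in Pool library 2, so that the series did not overlap. Fewer than 570 peaks, the highest of the lowest peak counts of any mouse library, were seen in 57 Inh_MGE cells of numbered library 1 (36.1%), in 42 of numbered library 2 (50.6%) and in none of either Pool library. These 99 cells were 28.5% of all Inh_MGE cells, and 100 Inh_CGE cells (18.1%) lay below the same limit.

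**Figure D2:**
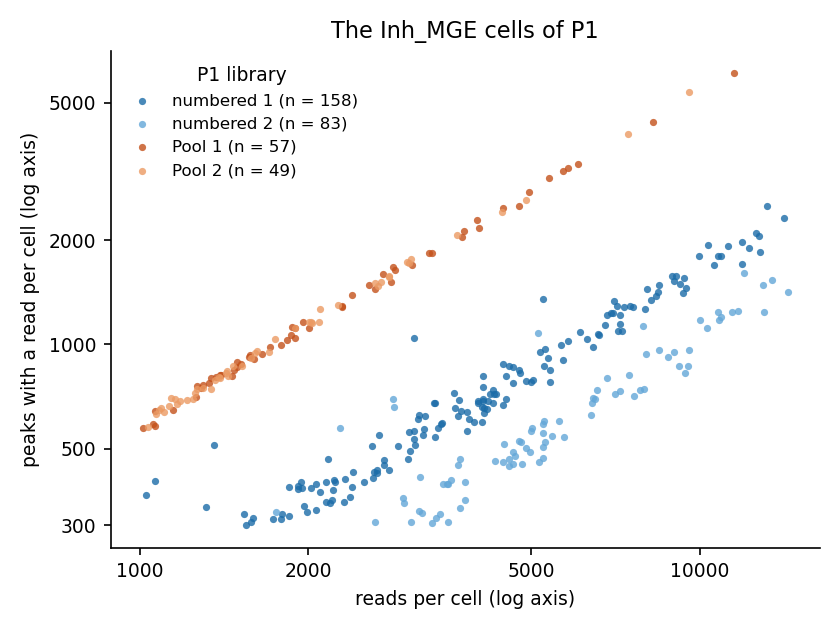
Peaks with a read (y axis, log scale) against reads (x axis, log scale) for the 347 Inh_MGE cells, 1 point per cell, coloured by P1 library. The Pool cells lie on 1 narrow band at about 570 peaks per 1000 reads, and the cells of numbered libraries 1 and 2 lie lower, with medians of 171 and 107 peaks per 1000 reads.

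The share of Inh_MGE was therefore followed as the peak minimum was raised for all libraries alike. At the deposited minimum of 300 peaks the numbered libraries averaged 44.4% of interneurons and the Pool libraries 29.7%, a difference of 14.7 points. At 500 peaks the difference was 11.3 points and at 570 peaks it was 10.1 points (39.9% against 29.8%). At 570 peaks the share in numbered library 1 was 43.9%, in numbered library 2 36.0%, in Pool library 1 31.3% and in Pool library 2 28.3%. The numbered libraries thus still lay above the Pool libraries, and the interval of numbered library 2, which at 300 peaks overlapped that of Pool library 1 alone, now overlapped those of both. At 700 and at 800 peaks the difference was 8.51 points. The part of peak capture in the difference between the series was not tested further.

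**Figure D3:**
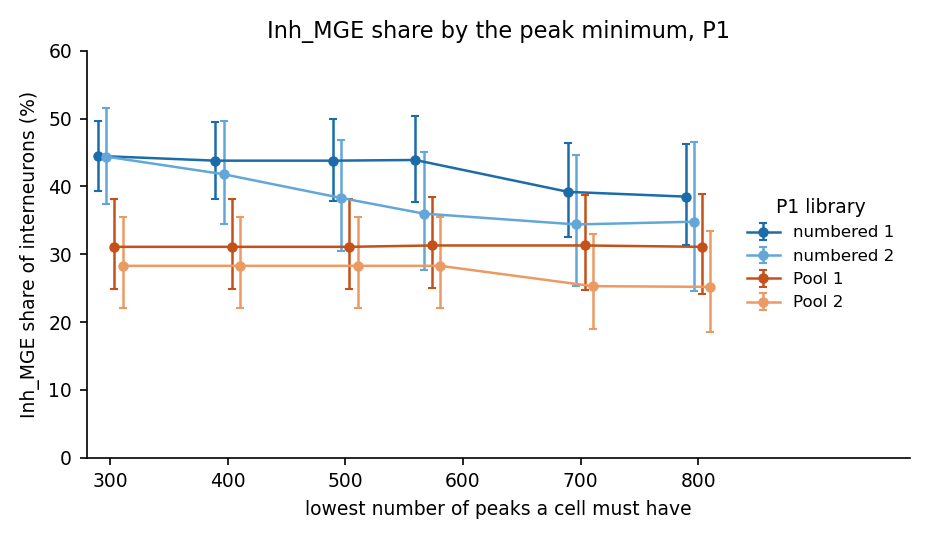
Inh_MGE share of interneurons (percent, y axis) against the lowest number of peaks a cell must have (x axis) in each P1 library, with 95% Wilson intervals as bars and points set slightly apart sideways. The numbered libraries went from a mean of 44.4% at 300 peaks to 36.6% at 800, and the Pool libraries went from 29.7% to 28.1%.

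By their medians, Inh_MGE cells were shallower than Inh_CGE cells of the same library in all 4 libraries. The median reads of Inh_CGE cells were 4523 and 6945 in the numbered libraries and 2086.5 and 1943 in the Pool libraries. Each of these values lay above that of the Inh_MGE cells given above. The log2 differences in median reads, Inh_MGE minus Inh_CGE, were -0.14 and -0.41 in the numbered libraries and -0.14 and -0.30 in the Pool libraries. Their mean was -0.25 ± 0.13 (SD, n = 4 libraries), equal to 0.843-fold. An exact two-sided sign-flip permutation test over the 4 libraries gave p = 0.125 (adjusted p = 0.125 over 6 tests), the smallest it can give, so that no difference of this kind could pass 0.05. The mean was -0.27 in the numbered and -0.22 in the Pool libraries. With the mean reads of each library in place of the median, the difference was -0.13, with Inh_MGE lower in 3 of 4 libraries and at 0.04 in Pool library 1 (p = 0.250, exact sign-flip permutation test). Pooling the cells of all libraries turned the direction to 0.14, with medians of 3653 reads for Inh_MGE and 3317 for Inh_CGE, and the numbered libraries, in which cells had more reads, held 69.5% of the Inh_MGE cells and 54.6% of the Inh_CGE cells.

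The same held for peaks. The median peaks of Inh_CGE cells were 813 and 754 in the numbered libraries and 1208 and 1161.5 in the Pool libraries, again above Inh_MGE in each. The mean log2 difference was -0.29 ± 0.13 (SD, n = 4 libraries), or 0.820-fold, with p = 0.125 by the same exact test. From mean peaks it was -0.14, with Inh_MGE lower in 3 of 4 libraries and at 0.01 in Pool library 1, and with the peak minimum of 570 the difference in medians was -0.19. At matched reads, that is after taking out the line of log2 peaks on log2 reads within each library, the difference was -0.03 ± 0.01. The lower peak count of Inh_MGE cells thus went along with fewer reads, and little of it was seen at equal reads.

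Pyramidal neurons, the largest class at P1, gave a second reference. Their median reads were 4978.5 and 6596 in the numbered libraries and 1923 and 1953 in the Pool libraries. The Inh_MGE medians lay below them by a mean log2 difference of -0.23 ± 0.14 (SD, n = 4 libraries) in reads and -0.26 ± 0.17 in peaks, which is 0.850-fold and 0.834-fold (p = 0.125 each, exact sign-flip permutation test, n = 4, lower in 4 of 4 libraries). From means per library the values were -0.14 and -0.15, with Inh_MGE lower in 3 of 4 libraries (p = 0.250 each, exact sign-flip permutation test), and with the peak minimum of 570 the differences in medians were -0.15 and -0.14. In Pool library 1 the difference in medians was -0.02 in reads and -0.01 in peaks, whereas in the other 3 libraries it lay between -0.33 and -0.28 in reads and between -0.37 and -0.31 in peaks. For Inh_CGE cells the log2 difference in reads from pyramidal neurons was -0.14, 0.07, 0.12 and -0.01 in the 4 libraries, on both sides of 0. Among the 7 types named at P1, ordered by median reads from the highest, Inh_MGE was number 5 and 6 in the numbered libraries and number 4 and 6 in the Pool libraries. Astrocytes had fewer reads than Inh_MGE in all 4.

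**Figure D4:**
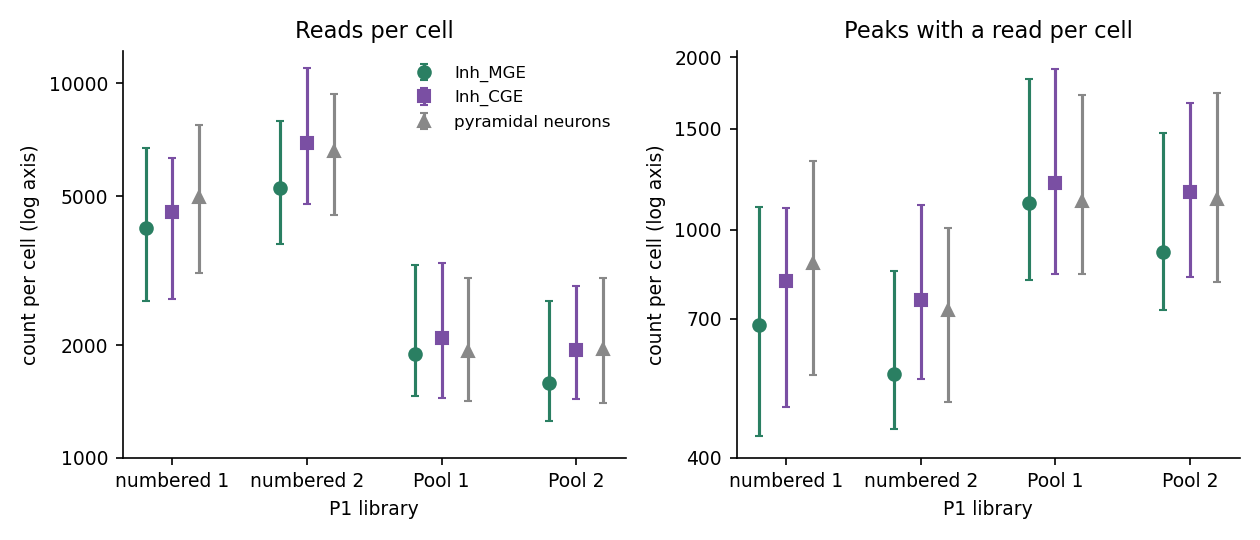
Median reads (left) and median peaks with a read (right) per cell, both on log axes, of Inh_MGE (circles), Inh_CGE (squares) and pyramidal neurons (triangles) in each P1 library, with the middle 50% of cells as bars. The Inh_MGE median was the lowest of the 3 in every library, while in Pool library 1 it lay within 0.02 on the log2 scale of the pyramidal neurons, and the bars overlapped throughout.

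The lower depth of Inh_MGE can also be given as shares, which is the same observation since Inh_MGE and Inh_CGE were all the interneurons of P1. The interneurons of each library were divided by their reads into 3 bins of nearly equal size. In the lowest bin Inh_MGE made up 45.8% and 55.6% of interneurons in the numbered libraries and 34.4% and 39.7% in the Pool libraries. In the highest bin it made up 40.7%, 30.2%, 27.9% and 22.4%. The highest bin was below the lowest in 4 of 4 libraries, with means of 30.3% and 43.8%, a mean difference of -13.6 ± 9.57 points (SD, n = 4 libraries) and a range from -25.4 to -5.08. With bins by peaks in place of reads the mean difference was -14.8 ± 12.3 points. With cells of at least 3444 reads, the median over all mouse cells, the mean share was 34.7%, and with the peak minimum of 570 it was 34.9%. The limit of 3444 reads lay above the upper quartile of Inh_MGE reads in both Pool libraries (3281 and 2631). It lay below the Inh_MGE medians of the numbered libraries (4100.5 and 5240), so few Pool cells were left.

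The cluster that held Inh_MGE was next followed to older ages. All 347 Inh_MGE cells belonged to cluster 6, and no P1 cell of that cluster carried another name. At P7 the same cluster held 571 cells, all named Inh_Sst, and at P21 it held 7 cells, all without a type. Of its 925 cells, 37.5% were thus from P1 and 61.7% from P7. Of 20 clusters named as neurons at some age, 4 were named at 2 ages, and cluster 6 was the only one of them that was named differently at the second age. As interneuron names of P1 were not used at later ages, any interneuron cluster named at P1 and later had to change its name. Inh_CGE behaved otherwise. Its cluster 11 held 551 P1 cells (88.3% of the cluster), 57 cells of P7 and 16 of P21, none of these 73 with a type, and 45 of the 57 came from Pool library 2. The names of clusters were given per age by the study, and clusters with fewer than 100 cells at an age were to be left out there, so an absent name at an age does not show that the cells were absent.

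At P7 cluster 6 made up 9.22% and 9.36% of all cells in the numbered libraries and 10.7% and 7.65% in the Pool libraries (136, 134, 191 and 110 cells). The mean was 7.0% ± 1.45 at P1 and 9.24% ± 1.25 at P7 (SD, n = 4 libraries each). The libraries of the ages overlapped, and the difference of 2.24 points did not pass (p = 0.0571, adjusted p = 0.0571 over 4 tests, exact permutation test). At P21 the cluster held 4, 2, 1 and 0 cells in numbered libraries 1 and 2 and Pool libraries 1 and 2, and 0 cells of 1321, set at the limit of 3 counts, allow a share of up to 0.227% in Pool library 2. The mean at P21 was 0.0719% ± 0.0517, a difference from P1 of -6.92 points. Every P21 library lay below every P1 library (p = 0.0286, adjusted p = 0.0571, exact permutation test). That p is the smallest that 4 against 4 libraries can give. Cluster 6 was followed because it held the P1 cells, so a sizeable share at P1 came with the choice. The test therefore cannot say whether the cells themselves became fewer by P21. The peak minimum of 570, applied to shares after seeing the data, removed 36.1% and 50.6% of the Inh_MGE cells of the numbered P1 libraries. It removed none in the Pool P1 libraries and at most 3.66% of the P7 Inh_Sst cells of a library, and the mean P1 share was then 6.33%. With this limit, which thus acted mainly on 1 age, the P7 and P21 differences both passed. They were 2.85 and -6.26 points, each with an adjusted p = 0.0286 in the exact permutation test. With libraries that agreed within sampling noise averaged, neither did (adjusted p = 0.400 and 0.267, exact permutation test), and no p below 0.20 was possible there.

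**Figure D5:**
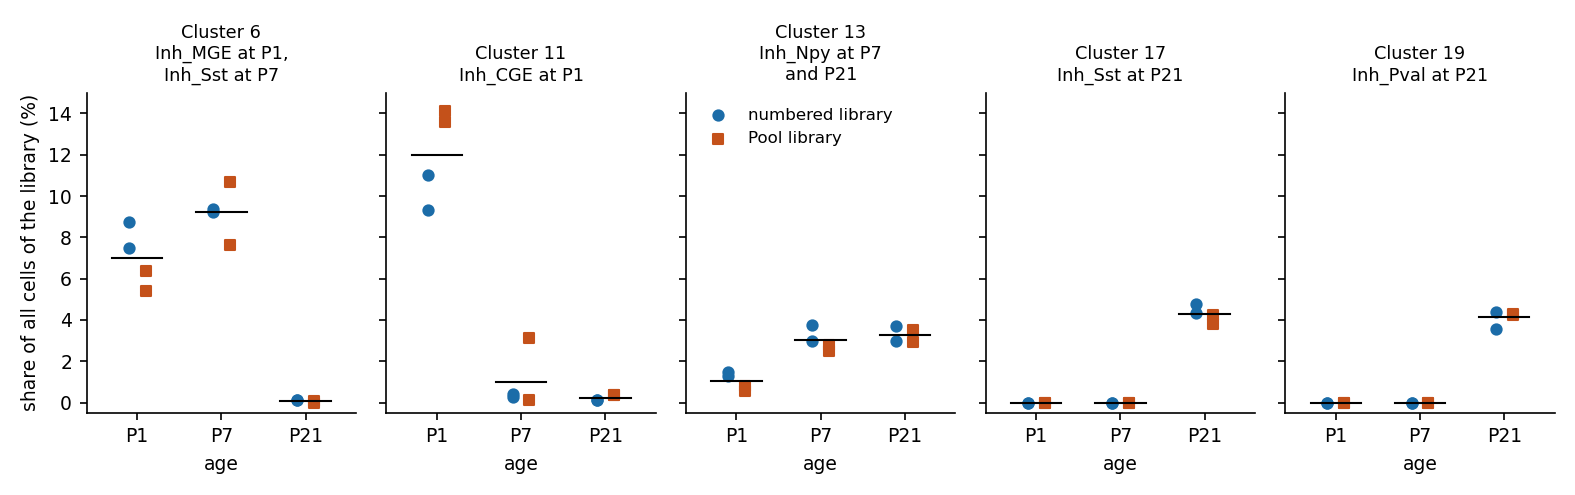
Share of all cells of a library (percent, y axis) in the 5 interneuron clusters at P1, P7 and P21 (x axis), with 1 point per library (circles numbered, squares Pool) and the mean of 4 libraries as a line. Cluster 6, Inh_MGE at P1 and Inh_Sst at P7, averaged 7.0%, 9.24% and 0.0719%, and clusters 17 and 19 held cells only at P21.

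Among named interneurons cluster 6 was the minority at P1 and the majority at P7. At P7 it made up 71.2% and 75.7% of named interneurons in the numbered libraries and 79.3% and 75.3% in the Pool libraries. The mean was 75.4% ± 3.29 against 37.1% ± 8.57 at P1 (SD, n = 4 libraries each), a difference of 38.3 points without overlap between libraries. The exact permutation test gave p = 0.0286 and adjusted p = 0.0571 over 4 tests, so that the difference did not pass after adjustment. It was 29.0 points in the numbered libraries and 47.6 in the Pool libraries, and 41.0 with the peak minimum of 570 (adjusted p = 0.0286, exact permutation test). The names in the denominator changed with age: at P7 no cell was named Inh_CGE, and the 57 cells of cluster 11 had no type. With unassigned cells given the type of their cluster, the difference was 34.7 points. Among all neurons the share of cluster 6 was 8.29% at P1 and 12.6% ± 1.49 at P7, a difference of 4.30 points (p = 0.0571 and adjusted p = 0.0571, exact permutation test, n = 4). At P7, 19.3% of cells had no type, and when the P7 cells of cluster 9, which had no type, were added to the neurons this difference was 2.34 points. Among cells with at least 3444 reads it was 1.30 points, and with the peak minimum of 570 it was 5.14 (by the exact permutation test, adjusted p = 0.724 and 0.0286). The read limit left few Inh_MGE cells in the Pool libraries of P1.

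The types that textbook lineage places after Inh_MGE were set beside it. At P21 Inh_Sst (359 cells, all in cluster 17) and Inh_Pval (326 cells, all in cluster 19) made up 73.5% and 70.3% of interneurons in the numbered libraries and 70.8% and 73.1% in the Pool libraries. No cell of either cluster was found at P1 or P7. The mean of 71.9% ± 1.63 (SD, n = 4 libraries) was 34.8 points above the share of Inh_MGE at P1, with no overlap (p = 0.0286, adjusted p = 0.0571, exact permutation test). The names in the denominator differed between these ages. At P21 the only other interneuron name was Inh_Npy, no cell was named Inh_CGE, and the 16 cells of cluster 11 had no type. Counted without Inh_Pval, the difference was -0.444 points. Of neurons Inh_Sst and Inh_Pval made up 8.98% and 9.47% in the numbered libraries and 9.91% and 9.53% in the Pool libraries, and the mean of 9.47% ± 0.381 lay 1.18 points above Inh_MGE at P1 (p = 0.343, adjusted p = 0.343, exact permutation test, n = 4). Within the series this difference went opposite ways, with -0.660 points in the numbered and 3.02 points in the Pool libraries. Without Pool library 2 of P1 it was 0.462 and without numbered library 2 of P1 it was 1.96. With the peak minimum of 570 it was 2.07 points and passed (adjusted p = 0.0286, exact permutation test, n = 4), while among cells with at least 3444 reads it was -0.511. The direction and the call of this difference thus changed with the depth limit. Few Inh_MGE cells of the Pool P1 libraries had 3444 reads, as their upper quartiles were 3281 and 2631. Interneurons were 22.4% ± 1.55 of neurons at P1 (SD, n = 4 libraries). Over all libraries, named interneurons were 898 of 4092 neurons at P1, 755 of 4495 at P7 and 950 of 7331 at P21, a smaller part at each later age.

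The depth of the cluster 6 cells was compared between P1 and P7. The 4 P7 libraries had median reads of 3022.5, 2553, 2367 and 2905, within the range of 1580 to 5240 of the P1 libraries. The difference in mean log2 reads, P7 minus P1, was -0.07 (p = 0.857, exact permutation test, n = 4). In the numbered libraries it was -0.74 and in the Pool libraries 0.60. Median peaks at P7 were 1674.5, 1421.5, 1222 and 1589.5, all above the P1 range of 561 to 1113, and the log2 difference was 0.89, or 1.86-fold (p = 0.0286, adjusted p = 0.143 over 5 tests, exact permutation test). It was 1.32 in the numbered and 0.47 in the Pool libraries. At matched reads the log2 difference in peaks was 1.80 in the numbered and -0.09 in the Pool libraries, with the line fitted over the mouse cells of each series. The higher peak count at P7 was thus seen at equal reads where the P1 libraries had few peaks per 1000 reads, and not in the Pool series.

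Relative to the pyramidal neurons of the same library, the cells of cluster 6 were the shallower at both ages. The log2 difference in reads at P7 was -0.32, -0.61, -0.28 and -0.40 in numbered libraries 1 and 2 and Pool libraries 1 and 2. Its mean of -0.40 ± 0.15 lay 0.17 below the P1 mean of -0.23 ± 0.14, a change of -0.17 that did not pass (p = 0.20, adjusted p = 0.333, exact permutation test, n = 4). In peaks the means were -0.26 at P1 and -0.41 at P7, a change of -0.15 (adjusted p = 0.429, exact permutation test, n = 4). Without Pool library 1 of P1 these changes were -0.10 in reads and -0.06 in peaks, without numbered library 2 of P7 they were -0.10 and -0.08, and with the peak minimum of 570 they were -0.26 each (adjusted p = 0.107, exact permutation test). Inh_Npy cells of P7, from cluster 13, were shallower still than the Inh_Sst cells in all 4 libraries, with median reads of 1846, 2075, 1500.5 and 1821.5.

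Barcodes were checked because plate-based indexing reuses them. Of the 347 Inh_MGE cells, 164 (47.3%) had a barcode that also occurred in another mouse library, against 47.7% of all mouse cells. No barcode occurred more than once within a library. In the 201 pairs so formed the other cell was in cluster 6 in 9 (4.48%), close to the 4.83% of all mouse cells that were in that cluster. In both series the P1 libraries of the series had no P2 part of the barcode in common, whereas numbered and Pool P1 libraries of the same number carried the same P2 parts.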

How the data were processed

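Single-cell accessibility had been measured in 12 mouse libraries, and the 4 P1 libraries held the Inh_MGE cells. The authors aligned reads with Bowtie2, removed duplicates with Picard, sampled libraries to a similar depth per cell, and called peaks with MACS2 on mm10 (build and caller per the submitters' processing notes). They filtered cells by reads and peaks, clustered them after latent semantic indexing and named clusters by the inferred activity of marker genes. No treatment of doublets was found in the labels or methods. Labels also carry a sorting protocol for projection neurons, whereas the study calls these samples unfractionated, and such a sort could set the shares. The deposited table holds 2 counts per cell, reads and peaks with a read, not normalized by the authors, besides cluster, name, age and library. Mouse libraries held 2186788 reads or more.

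Cells were counted per library and name, with 95% Wilson intervals. Each library weighed equally. Interneurons were names starting with Inh, neurons these plus pyramidal names, and unassigned cells stayed out of both. Values were compared by two-sided exact permutation tests over libraries, between ages by exchanging libraries and within P1 by sign-flips, with Benjamini-Hochberg adjustment within each family. The threshold was 0.05. Medians of reads and peaks were taken on the log2 scale. Peaks at matched reads were the mean residuals of log2 peaks on log2 reads, fitted within each library at P1. For the comparison of ages the line was fitted over all mouse cells, or over the cells of 1 series where a series stands by itself. No comparison ran across genes, so the genes named (Gad1, Gad2 and Lhx6) are background. The members, lists and tests were chosen with earlier results of these data known. Limits on reads and peaks, series, left-out libraries, other sets of names and blocks by number were tried as alternatives. No exact permutation test between ages could pass with a library left out (smallest p = 0.0571), by exchange within series (0.0556) or with agreeing libraries averaged (0.20). Added after seeing the data were 1 peak minimum for shares, pooled cells and averaged agreeing libraries for depth (the latter at P1 and between ages), each series by itself at P1, and cluster 9 counted among neurons. Tests were tested on simulated shares drawn independently for each library. The simulation held no difference between series, so it does not show how the tests behave where libraries of a series agree. Python 3.11.15, NumPy 2.4.6, pandas 2.3.3, SciPy 1.17.1 and matplotlib 3.10.9 were used.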

Additional observations from a re-analysis of the deposited data

Results flagged for a closer look

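Pool library 1 stood apart from the other 3 P1 libraries in the depth of Inh_MGE relative to pyramidal neurons. There the log2 difference was -0.02 in median reads and -0.01 in median peaks, against -0.33 to -0.28 and -0.37 to -0.31 in the others. These were 2 of 42 sets of 4 library values examined, and chance gives about 1 in 20. The change in the reads of cluster 6 cells from P1 to P7 went opposite ways, by a log2 difference of -0.74 in the numbered and 0.60 in the Pool libraries, and the difference between the series was not tested. At P1 there were 53 cells without a type in cluster 13, which is named Inh_Npy at P7 and P21, with 27 and 14 in the numbered and 7 and 5 in the Pool libraries.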

How the results depend on the processing

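Of 342 values recomputed under another setting, 301 kept their direction and their side of the threshold or moved by less than the spread between libraries, 18 passed the threshold newly, 14 moved further and 9 reversed. The causes were not tested. Depth limits the cells compared: under the common filter of at least 1000 reads and 300 peaks, only the numbered P1 libraries held cells down to 300 peaks. With 4 libraries no sign-flip test can pass. As no reported value passed, the 301 do not show robustness.

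With cells of at least 1528 peaks, the mouse median, cluster 6 and the lineage names rose by 53.0 points of interneurons and 3.28 of neurons at P7. At P21 the names rose by 47.6 of interneurons and cluster 6 changed by -5.82 of all cells (exact permutation test, adjusted p = 0.0381 at both ages). With 1 peak minimum of 570 these values were 41.0, 5.14 and 37.0, and -6.26, with 2.85 of all cells at P7 and 2.07 of neurons at P21 (exact permutation test, adjusted p = 0.0286 for each). With cells of at least 3444 reads the P21 change of the lineage names among neurons reversed to -0.511, and the P7 changes of cluster 6 were 0.603 among all cells and 1.30 among neurons. That limit left few Inh_MGE cells in the Pool libraries of P1. The 1528-peak limit left few in the numbered ones (upper quartiles 1094 and 848).

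Inh_Npy counted with the lineage gave 62.9 points of interneurons at both ages and 8.41 and 4.89 of neurons (adjusted p = 0.0286 each, exact permutation test). Inh_Sst, Inh_Pval and Inh_Npy were all the interneuron names after P1, so the interneuron values were fixed in advance and show nothing. The neuron values set all named interneurons of P7 and P21 against Inh_MGE alone. Inh_Sst alone reversed the P21 changes to -0.444 and -3.48 points. Pooled cells reversed the log2 reads of Inh_MGE minus Inh_CGE to 0.14 and moved those against pyramidal neurons to -0.03.

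In the numbered libraries alone cluster 6 and the lineage names changed by 29.0 points of interneurons at P7, the names by 27.4 points of interneurons and -0.660 of neurons at P21, and the cluster by -8.00 of all cells. In the Pool libraries alone the same values were 47.6, 42.2, 3.02 and -5.85. The log2 differences of cluster 6 in reads, peaks and peaks at matched reads were -0.74, 1.32 and 1.80 in the former, and 0.60, 0.47 and -0.09 in the latter.

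Leaving out 1 library at a time gave Inh_MGE shares of 34.6% to 40.0% of interneurons. Of the changes, the log2 reads of cluster 6 alone changed direction, to 0.11 without numbered library 1 of P1 and to 0.23 without numbered library 2, in a range of -0.35 to 0.23. The lineage names among neurons at P21 ranged from 0.462 to 1.96 points. Cluster 6 relative to pyramidal neurons ranged from -0.21 to -0.10 in log2 reads and -0.18 to -0.06 in log2 peaks. Means in place of medians kept the direction of each mean depth difference at P1.

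Libraries with the same number were not paired: across 9 clusters their deviations from the age means correlated at -0.41 to 0.38. With replicate number as a block within series the changes of 38.3 and -6.92 points had p = 0.125 each by exact sign-flips, the smallest possible. Without the library as a block the reads of Inh_MGE minus Inh_CGE had p = 0.600 (exact permutation test, n = 4).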
